A study of Mus musculus with 13 samples.

Results

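The myelin and oligodendrocyte lineage genes described here are 9 members chosen by gene symbol: Mbp, Mog, Mag, Mobp and Cnp of the myelin sheath, the transcription factors Olig1 and Olig2, and the progenitor surface proteins Pdgfra and Cspg4. All 9 were found among the 55291 gene symbols counted in each library. RNA came from the CA1 region of organotypic entorhino-hippocampal tissue cultures, slices prepared at postnatal day 4 to 5 that keep the layered circuit in a dish and were grown for at least 18 days. The 13 libraries were all from wildtype C57BL/6 mice and held 5 non-lesioned controls, 4 cultures after Schaffer collateral lesion (SCL), which cuts the axons from CA3 to CA1, and 4 cultures after entorhinal cortex lesion (ECL), which cuts the perforant path. Lesioned cultures were taken 3 days after the cut, and each library was made from one culture. Whether the cultures of a group came from separate animals is not given in the sources used here, so the p-values measure the spread between cultures.

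Oligodendrocytes wrap axons in myelin, a stack of compacted membrane that speeds conduction and feeds the axon. They arise from progenitors that carry the receptor PDGFRα and the proteoglycan NG2 (genes Pdgfra and Cspg4), divide in response to the ligand PDGF-AA, and remain in the adult hippocampus. The basic helix-loop-helix factors OLIG1 and OLIG2 mark the whole lineage from progenitor to myelinating cell, and the sheath proteins appear in turn as a cell matures, with MOG, on the outermost membrane, among the last.

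Positions are given on GRCm38 (GENCODE M21). Mog lies on the minus strand at chr17:37010743-37023398, Mag on the minus strand at chr7:30899176-30914873, Mobp on the plus strand at chr9:120149707-120181484 and Cnp on the plus strand at chr11:100574904-100591729. Olig2 at chr16:91225457-91228677 and Olig1 at chr16:91269772-91271933 lie near each other on the plus strand. Pdgfra at chr5:75152292-75198215 and Cspg4 at chr9:56865033-56899870 are also on the plus strand. Reads were counted without strand, and 7.26% of the exon bases of Olig1, 6.50% of Pdgfra, 4.23% of Cnp and 1.15% of Mobp also belong to another annotated gene, while Mog, Mag, Olig2, Cspg4 and Mbp share none.

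Promoter sequence is shown for the 4 sheath genes with a RefSeq promoter entry. Of these, Mog passed the tests below and Mag, Mobp and Cnp did not. Mbp passed as well but had no such entry. The stretches run from 250 to 51 bases before the most upstream RefSeq start (GRCm38.p6), 5′ to 3′ on the strand of the gene, and hold no annotated exon. Capitals mark an E-box (CANNTG, the class of site that OLIG factors bind) or a Sox-type site (ACAAAG), searched on both strands. No 2 marked sites overlapped.
Mog, chr17:37023449-37023648, minus strand: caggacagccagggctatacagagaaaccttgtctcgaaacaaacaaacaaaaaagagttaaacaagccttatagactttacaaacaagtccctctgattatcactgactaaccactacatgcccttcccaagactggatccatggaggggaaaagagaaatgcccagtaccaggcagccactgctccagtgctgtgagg
Mag, chr7:30914973-30915172, minus strand: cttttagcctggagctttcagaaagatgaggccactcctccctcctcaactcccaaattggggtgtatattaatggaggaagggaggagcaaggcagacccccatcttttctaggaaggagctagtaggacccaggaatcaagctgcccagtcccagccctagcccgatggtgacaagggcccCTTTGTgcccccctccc
Mobp, chr9:120149492-120149691, plus strand: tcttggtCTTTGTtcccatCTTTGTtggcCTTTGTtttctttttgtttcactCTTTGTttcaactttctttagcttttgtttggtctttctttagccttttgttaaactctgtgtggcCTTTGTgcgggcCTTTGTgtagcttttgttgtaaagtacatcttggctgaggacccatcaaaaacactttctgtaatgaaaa
Cnp, chr11:100574689-100574888, plus strand: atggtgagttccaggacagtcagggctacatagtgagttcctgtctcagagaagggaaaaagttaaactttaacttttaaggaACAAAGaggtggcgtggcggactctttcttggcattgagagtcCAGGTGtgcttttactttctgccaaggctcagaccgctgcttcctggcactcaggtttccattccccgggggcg
The Mog stretch held neither motif. The Mobp stretch held 6 Sox-type matches, and Mag and Cnp held 1 each. Cnp had the only E-box. Among 32851 RefSeq promoter stretches of the same length, 59.0% held an E-box and 13.6% a Sox-type site. A match is a match of letters only. RefSeq promoter entries were found for 7 of the 9 members, all but Mbp and Olig1.

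Library totals ran from 14371152 to 56786613 counts. The SCL libraries (median 33773026.5) were deeper than the control libraries (median 18225356), with ECL between them (median 23291778). Together the members took 0.112% to 0.242% of the counts of a library. The titles name CA1 as the tissue, while the protocol text of the same records names the dentate gyrus. In the controls the CA1 marker Fibcd1 averaged 80.5 CPM and the dentate granule cell markers C1ql2 and Dsp 0.40 and 0.71 CPM. CPM here are library-size-scaled counts on one TMM scaling of all 13 libraries. Sex, read from the column headings, matched Xist and Y-linked counts in all 13 libraries and was uneven over the groups: 2 male and 3 female controls, 1 and 3 after SCL, and 3 and 1 after ECL. A gene is called here when edgeR's quasi-likelihood fit gave it a Benjamini-Hochberg adjusted p under 0.05 over all genes tested in that comparison. Genes whose normalized counts averaged under 150 were not tested.

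The sheath genes and the OLIG factors were well covered and the progenitor genes were low. Per kilobase of exon, Cnp had the highest mean level in the controls, 73.2 ± 11.6 CPM per kb (SD, n = 5), followed by Mbp (68.9 ± 24.1), Mobp (54.6 ± 6.14), Olig1 (39.7 ± 10.1) and Mog (34.1 ± 6.39). Each of these 5 overlapped its neighbour in that order over the control libraries. Olig2 (15.8 ± 3.39 CPM per kb) and Mag (13.4 ± 3.45) overlapped each other and lay below Mog in every control. Pdgfra followed at 3.24 ± 0.842 CPM per kb and Cspg4 at 1.08 ± 0.111, each below its neighbour in every control library. After either lesion the order of the top changed, with Mbp and Mog first and second. Mbp then stood at 119 ± 31.4 CPM per kb after SCL and 120.3 ± 26.5 after ECL, and Mog at 80.5 ± 15.6 and 84.9 ± 22.3 (SD, n = 4 each). In both lesion groups Mbp overlapped Mog, and Mog overlapped Cnp, so that this order is not firm.

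**Figure D1:**
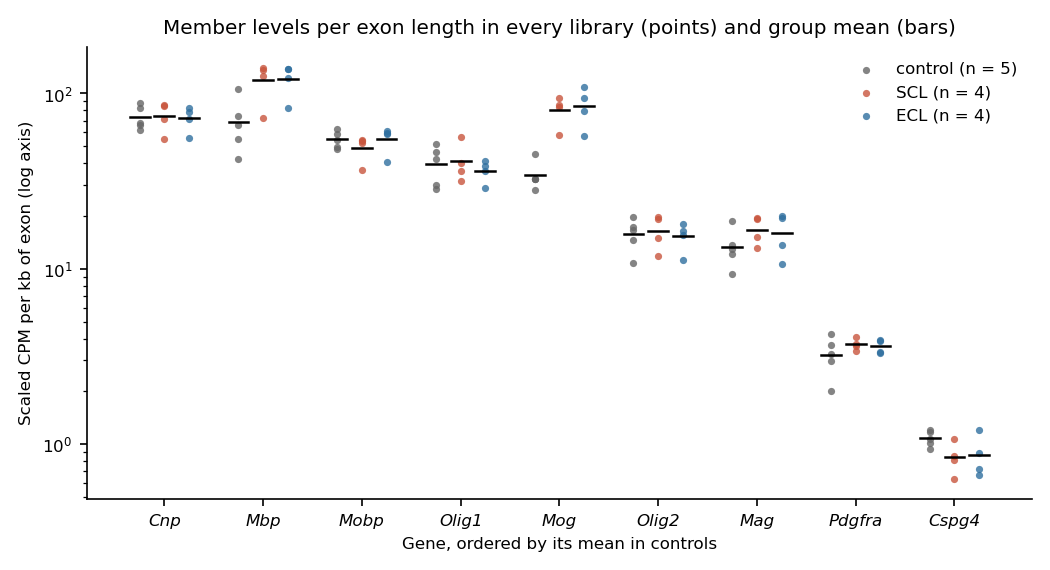
Level of each member per kilobase of exon (scaled CPM per kb, log axis), with a point for every library of the control (n = 5), SCL (n = 4) and ECL (n = 4) groups and a bar at the group mean. Mbp and Mog shift upwards in both lesion groups, Mog from a control mean of 34.1 to 80.5 and 84.9, and only the Mog ranges of controls and lesioned cultures do not overlap.

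Mog, an immunoglobulin-family protein of the outer myelin surface, rose after both lesions. Its control libraries 1 to 5 stood at 55.2, 76.7, 55.3, 47.9 and 55.7 CPM. The 4 SCL libraries stood at 160.7, 146, 143 and 99.0 CPM and the 4 ECL libraries at 186, 160.1, 96.9 and 136 CPM. Every lesioned culture lay above every control, and even the lowest of them, ECL library 3, exceeded the highest control. The fitted change was 2.36-fold after SCL (log2 fold change 1.24 ± 0.17, SE; edgeR adjusted p = 0.00132) and 2.5-fold after ECL (1.32 ± 0.19; adjusted p = 0.000393). The call held in all 21 alternative fits of each comparison, among them leaving out each library in turn, with a lowest log2 fold change of 0.88 and a highest of 1.44 for SCL, and of 0.96 and 1.51 for ECL.

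Mbp, the basic protein that zips the cytoplasmic faces of the membrane together, rose as well, with more spread. The gene lies on the plus strand at chr18:82475146-82585637, and each value is a sum over all its exons, so the Golli and classic transcripts are not separated. Control libraries 1 to 5 stood at 558, 902, 628, 360.0 and 468 CPM. The SCL libraries stood at 613, 1190.4, 1151 and 1063 CPM, and the ECL libraries at 696, 1171, 1034 and 1173 CPM. The groups overlapped: control library 2 lay above SCL library 1 and ECL library 1, and the other 3 libraries of each lesion group lay above all controls. The fitted change was 1.72-fold after SCL (log2 fold change 0.78 ± 0.26, SE; edgeR adjusted p = 0.0426) and 1.75-fold after ECL (0.81 ± 0.24; adjusted p = 0.0214). The SCL call was lost without control library 1, 3, 4 or 5 or SCL library 2, 3 or 4 (edgeR adjusted p from 0.0595 to 0.110) and with the replicate number of the titles (0.0503) or headings (0.0738) as a block, 9 of 21 alternative fits in all. The ECL call was lost in 4 of 21, without control library 5 or ECL library 2 or 4 (adjusted p from 0.0587 to 0.0640) and with a term for sex (adjusted p = 0.0517).

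The other 3 sheath genes did not pass the test in either comparison. Mag, an adhesion molecule of the innermost membrane facing the axon, ranged from 38.0 to 76.6 CPM in the controls, 53.2 to 79.0 in the SCL cultures and 43.3 to 81.1 in the ECL cultures. Its log2 fold change was 0.32 after SCL (95% interval -0.11 to 0.74) and 0.26 after ECL (-0.21 to 0.73). Mobp, another basic protein of compact myelin, ranged from 329 to 429.5 CPM in the controls, 252 to 371 in the SCL cultures and 277 to 416 in the ECL cultures. Its log2 fold change was -0.15 after SCL (95% interval -0.47 to 0.17) and 0.01 after ECL (-0.32 to 0.34). Cnp, a phosphodiesterase of the cytoplasm-filled parts of the sheath, ranged from 225 to 322 CPM, from 201 to 312 and from 204 to 302 in the same order. The log2 fold change was 0.01 after SCL (95% interval -0.34 to 0.37) and -0.02 after ECL (-0.35 to 0.32). For all 3 genes the upper bounds lay below the lower bounds for Mog, 0.87 after SCL and 0.91 after ECL.

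In all, 2 of the 9 members were called higher after each lesion and none lower. That is 22.2% of the members, beside 13.1% of the 11495 genes tested after SCL and 15.2% of the 11255 tested after ECL that were called higher, and 11.8% and 12.5% called lower. Only Mog had groups that did not overlap, 1 of 9 members in each comparison, beside 23.5% of genes tested after SCL and 25.0% after ECL. No test of the members as a set was made. The median log2 fold change of the members was 0.05 after SCL and 0.01 after ECL, beside 0.01 and -0.01 over all genes tested.

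**Figure D2:**
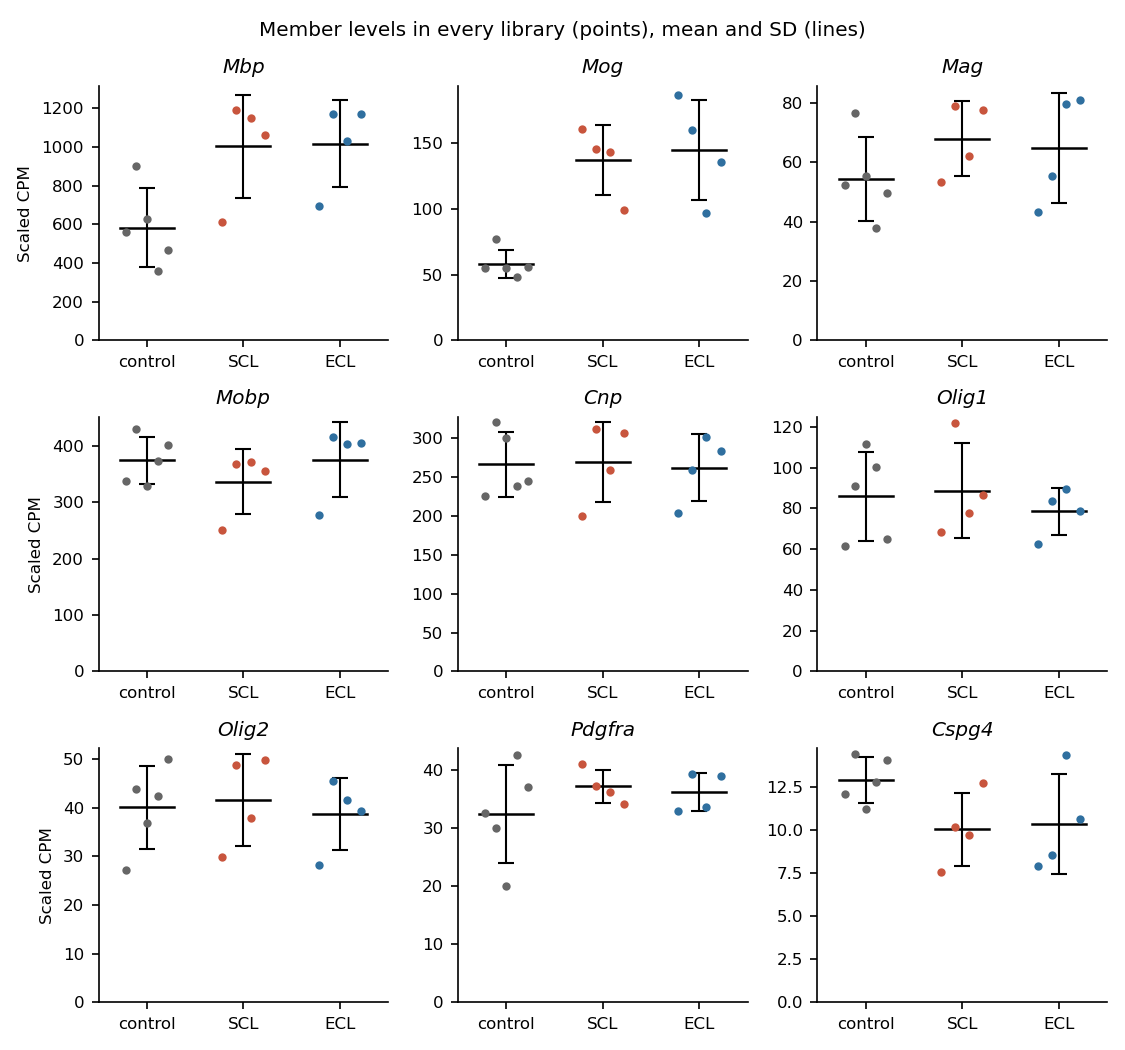
Level of each member in scaled CPM, with a point for every library of the control (n = 5), SCL (n = 4) and ECL (n = 4) groups in order of replicate number, and the mean and SD as lines. The Mog points of both lesion groups (96.9 to 186 CPM) lie above all controls (47.9 to 76.7 CPM), and the first SCL and ECL points are the lowest of their groups for Mbp, Mobp, Cnp and Olig2.

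**Figure D3:**
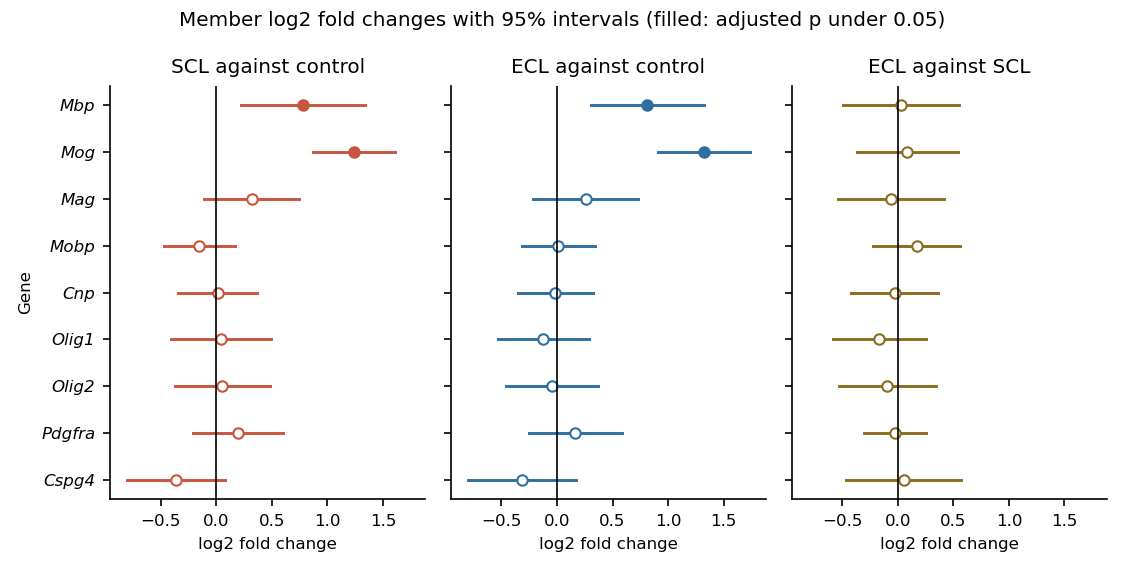
Log2 fold change of each member (points) with its 95% interval (lines) in the 3 comparisons, where filled points have an edgeR adjusted p under 0.05. Mog (1.24 and 1.32) and Mbp (0.78 and 0.81) are filled in both comparisons with the controls and no member is filled between the lesions.

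Neither lineage transcription factor was called. Olig1 ranged from 61.4 to 111 CPM in the controls, 68.5 to 122 in the SCL cultures and 62.4 to 89.4 in the ECL cultures. Its log2 fold change was 0.04 after SCL (95% interval -0.41 to 0.49) and -0.12 after ECL (-0.53 to 0.28). Olig2 ranged from 27.2 to 50.04 CPM, from 29.9 to 49.7 and from 28.3 to 45.5 in the same order. For this gene the change was 0.05 after SCL on the log2 scale (95% interval -0.37 to 0.48) and -0.04 after ECL (-0.46 to 0.37). Both groups of lesioned cultures overlapped the controls for both genes. Bulk counts cannot tell fewer cells of a type from less RNA per cell, for these genes or for any other member.

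The progenitor surface genes were not called either. Pdgfra, the receptor for PDGF-AA, ranged from 20.1 to 42.7 CPM in the controls, 34.2 to 41.0 in the SCL cultures and 33.0 to 39.3 in the ECL cultures. Its log2 fold change was 0.20 after SCL (95% interval -0.21 to 0.60) and 0.17 after ECL (-0.25 to 0.58). Its coefficient of variation was 26.0% in the controls, 7.69% after SCL and 9.24% after ECL. Cspg4, the NG2 proteoglycan, ranged from 11.2 to 14.4 CPM in the controls, 7.58 to 12.7 in the SCL cultures and 7.89 to 14.3 in the ECL cultures. Its log2 fold change was -0.36 after SCL (95% interval -0.81 to 0.08) and -0.31 after ECL (-0.80 to 0.17), the lowest of the members in both. Fibroblasts also carry Pdgfra, and pericytes Cspg4. Of 10 mural cell markers, 6 averaged under 1 CPM, among them Des and Higd1b, the latter at 0 in every control, while Rgs5 (16.9 CPM) and Pdgfrb (7.29 CPM) had control means on either side of the 12.9 CPM of Cspg4. The summed level of the list was 28.9 to 32.1 CPM in the controls, 31.3 to 37.7 after SCL and 26.2 to 62.1 after ECL. The 8 fibroblast and meningeal markers summed to 173 to 330 CPM in the controls, 201 to 272 after SCL and 179.6 to 299.8 after ECL, most of it Igfbp2 and Dcn. Only 2 genes of each list passed the count minimum, and none of these was called. Among the untested, low genes, means in controls, SCL and ECL were 1.38, 0.27 and 0.30 CPM for Vtn and 3.82, 0.81 and 0.47 for Col3a1. Acta2 (0.79, 0.96 and 1.56 CPM) and Notch3 (0.99, 1.33 and 1.62 CPM) went the other way. The part of these cells in the levels of Pdgfra and Cspg4 was not tested.

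No member was called between ECL and SCL. The log2 fold changes of ECL against SCL ran from -0.17 (Olig1, 95% interval -0.58 to 0.25) to 0.17 (Mobp, -0.23 to 0.56). Mog stood at 0.09 (95% interval -0.37 to 0.54) and Mbp at 0.03 (-0.49 to 0.55), and 0 of 9 members were called, beside 0 of the 12248 genes tested (0.00%) with edgeR. At an unadjusted p under 0.05 the same fit held 901 genes, and DESeq2 called 65 genes, none of them a member. Both comparisons with the controls share the same 5 control libraries, so the like changes of Mog and Mbp in them are not independent.

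SCL library 1 was the lowest of its group for 7 of 9 members, and ECL library 1 was the lowest of its group for 8 of 9. Mog was the exception in both, with its highest value of the group in these very libraries (160.7 and 186 CPM) where Mbp had its lowest (613 and 696 CPM). In SCL library 1, Pdgfra (41.0 CPM) was also the highest of its group. Among the controls, library 2 was the highest for 6 of 9 members, and the lowest values were spread evenly over libraries 1, 3 and 4, with 3 members each. The headings mark SCL library 1 and ECL library 1 as female, and ECL library 1 was the only female one of its group, so that sex and this library cannot be told apart there. The 2 libraries also share the title number 1 and the heading number 3. Their deviations from the group means correlated at r = 0.530, the highest of the 12 same-number pairs. Their like pattern may therefore not be 2 separate observations. Leaving out SCL library 1 gave log2 fold changes of 1.15 for Mog and 0.96 for Mbp, and leaving out ECL library 1 gave 1.18 and 0.96, all with an edgeR adjusted p under the threshold.

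A ratio to Mobp within a library needs no scaling between libraries. Mobp was chosen for this after its values were seen, as the sheath gene with the smallest relative spread in the controls (coefficient of variation 11.2%). Mog gave 16.3, 17.9, 16.8, 12.9 and 13.9 counts per 100 Mobp counts in control libraries 1 to 5. It gave 63.9, 39.6, 38.6 and 27.8 in the SCL libraries and 67.2, 38.5, 24.0 and 33.4 in the ECL libraries. All 8 lesioned cultures lay above all controls. Mbp gave 165, 209.9, 191, 96.7 and 117 counts per 100 Mobp counts in the controls, 244, 324, 309.9 and 299 after SCL, and 251, 281, 256 and 289 after ECL. On this scale the Mbp groups no longer overlapped, since SCL library 1 and ECL library 1 were low in Mobp as well as in Mbp. Those Mobp values (251.5 and 277.1 CPM) were flagged as distant from their groups, so the separation of Mbp rests in part on them. In CPM, 23.5% of all genes tested did not overlap after SCL and 25.0% after ECL, and no such share was taken for this ratio. Cnp gave 61.2 to 91.3 counts per 100 Mobp counts in the controls, 69.8 to 86.2 after SCL and 62.3 to 75.0 after ECL, and Mag 10.2 to 17.8, 16.7 to 21.9 and 13.3 to 19.97, with overlap in each case. Relative to Mobp, then, Mog and Mbp were higher in every lesioned culture, and this ratio was not tested.

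**Figure D4:**
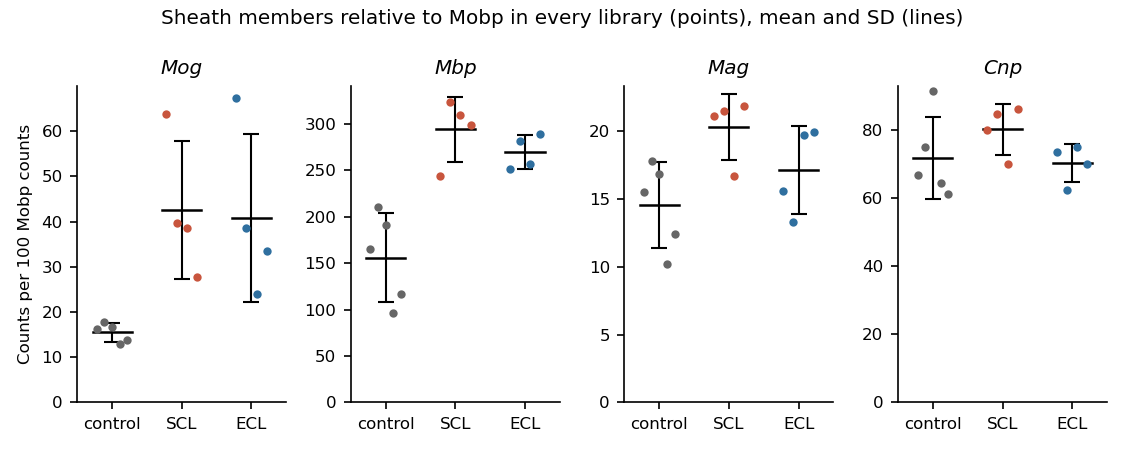
Counts of Mog, Mbp, Mag and Cnp per 100 counts of Mobp in the same library, with a point for every library of the control (n = 5), SCL (n = 4) and ECL (n = 4) groups, and the mean and SD as lines. Mog (controls up to 17.9, lesioned cultures from 24.0) and Mbp (controls up to 209.9, lesioned cultures from 243.8) separate, and Mag and Cnp overlap.

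Other genes of the lineage were read from 5 lists of 87 genes, 85 of them in the files. Of those tested, 9 of 69 rose and 10 fell after SCL, and 12 of 68 rose and 9 fell after ECL, beside 13.1% and 15.2% of all genes called higher and 11.8% and 12.5% called lower. The median log2 fold change was -0.01 after SCL and -0.05 after ECL. The lists differed in direction, as described next, and between ECL and SCL 0 of 71 were called with edgeR or with DESeq2.

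In the list of other myelin and mature oligodendrocyte genes, 6 of 21 tested rose after SCL and 7 of 20 after ECL, and none fell. Over all genes tested, 13.1% and 15.2% were called higher. Opalin, a transmembrane protein of late oligodendrocytes, rose from 30.7 to 52.7 CPM in the controls to 63.5 to 103 after SCL (log2 fold change 0.89) and 102 to 143 after ECL (1.41). Car2, the carbonic anhydrase of oligodendrocytes, rose by 1.17 and 1.33 on the log2 scale, and Ppp1r14a, a phosphatase inhibitor enriched in these cells, by 1.09 and 1.44. Cryab, a small heat shock protein found in oligodendrocytes and also in astrocytes, rose by 1.30 and 1.19, or by 0.81 and 0.66 with an offset for length and GC content. None of these 4 genes overlapped the controls after either lesion, and each was called in all 21 alternative fits of both comparisons. The 4 were named for the smallest adjusted p of the list in these same fits, so both traits follow in part from that choice. Of all genes tested, 23.5% did not overlap after SCL and 25.0% after ECL. Trf, Evi2a and Aspa are named after their values were seen, and no alternative fit was kept for them. Trf, the iron carrier transferrin, rose by 0.93 and 1.06 and Evi2a by 1.16 and 0.70 on the log2 scale, and Aspa was called only after ECL (1.02, edgeR adjusted p = 0.0334, beside 0.69 and adjusted p = 0.0579 after SCL, while the difference between lesions had an adjusted p of 0.876).

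Among differentiating oligodendrocyte genes and lineage regulators, 2 of 11 tested rose and none fell after SCL, and 2 rose and 2 fell after ECL. The shares over all genes tested were 13.1% and 15.2% called higher after SCL and ECL, and 11.8% and 12.5% called lower. Gpr17, a receptor of cells between the progenitor and the myelinating stage, rose from 4.26 to 7.13 CPM in the controls to 10.6 to 20.01 after SCL (log2 fold change 1.35) and 6.57 to 14.8 after ECL (0.92). Its ECL call was lost in 4 of 19 alternative fits: without control library 1 (edgeR adjusted p = 0.0536), without ECL library 2 (0.0611) or 4 (0.0919) and with a sex term (0.0760). Sirt2, a deacetylase abundant in myelin, rose by 0.96 after SCL and 1.18 after ECL on the log2 scale, with the SCL call lost without SCL library 3 (edgeR adjusted p = 0.0507). Tcf7l2, a Wnt effector of newly formed oligodendrocytes that neurons also express, fell by 0.99 on the log2 scale after ECL, a call lost in 6 of 21 alternative fits: without control library 5 (edgeR adjusted p = 0.0591) or ECL library 1 (0.0669) or 3 (0.0527), with TMM factors over all symbols (0.0530), with a sex term (0.0613) and with the heading-number block (0.0559). After SCL it stood at -0.67 (edgeR adjusted p = 0.111) and was called without control library 3 (0.0205). Bcas1, a marker of early myelinating cells, had a log2 fold change of -0.53 after ECL with an adjusted p at the threshold (0.0469), lost in 14 of 21 alternative fits. Leaving out any 1 of control libraries 2 to 5 or ECL libraries 1, 3 and 4 gave Bcas1 an edgeR adjusted p from 0.0671 to 0.124. Sox10 and Myrf, which drive myelin gene expression and were picked after their values were seen, were not called (log2 fold changes 0.43 and 0.04 after SCL, 0.59 and 0.34 after ECL).

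None of the 11 tested genes among the other progenitor genes was called after either lesion. Over all genes tested, 13.1% and 15.2% were called higher after SCL and ECL, and 11.8% and 12.5% lower. Their median log2 fold change was -0.17 after SCL and -0.05 after ECL. Ptprz1, the most abundant of them, ranged from 379.8 to 627 CPM in the controls, 397 to 506 after SCL and 325 to 481 after ECL. Cspg5 stood at 0.28 and 0.16, Epn2 at -0.09 and 0.05 and Sox6 at -0.31 and -0.30 on the log2 scale. With an offset for length and GC content, Cspg5 was called after both lesions (log2 fold change 0.47 and 0.34).

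Ligands and receptors that act on the lineage were the list with most falls: 9 of 19 tested genes fell and 1 rose after SCL, and 7 fell and 1 rose after ECL, beside 11.8% and 12.5% of all genes called lower. Pdgfa, the ligand of the Pdgfra receptor that neurons and astrocytes make, fell from 69.3 to 93.7 CPM in the controls to 40.3 to 63.3 after SCL (log2 fold change -0.76, edgeR adjusted p = 0.00704) and 33.9 to 52.6 after ECL (-0.97, adjusted p = 0.000906), without overlap and in all 21 alternative fits of both comparisons. Pdgfa is named for having the smallest adjusted p of this list. Of all genes tested, 23.5% after SCL and 25.0% after ECL did not overlap either. Jag1, a Notch ligand that holds progenitors back from maturing, fell after both lesions (log2 fold change -1.42 and -2.24). Its SCL call was lost in 5 of 20 alternative fits: without control library 5 (edgeR adjusted p = 0.0501), without SCL library 1 (0.0585), 2 (0.0688) or 3 (0.0760) and with the heading-number block (0.0594). Igf1r, the receptor for insulin-like growth factor, had log2 fold changes of -0.54 after SCL and -0.59 after ECL, both called. The SCL call was lost in 6 of 21 alternative fits: with TMM factors over all symbols (edgeR adjusted p = 0.139), filterByExpr (0.0523), no filter (0.204) or the offset for length and GC content (0.206), and without SCL library 1 (0.0521) or 3 (0.0654). The ECL call was lost in 3 of 21, with TMM factors over all symbols (edgeR adjusted p = 0.0602), no filter (0.117) or that offset (0.0541). The other called genes of the list, named after their values were seen, were Nrg1, Erbb4, Rtn4 and Cntnap1 after both lesions and Fgf2 and S1pr5 after SCL, all lower. Nrg1, an axonal ligand of the receptor Erbb4, was close to the threshold (edgeR adjusted p = 0.0497 after SCL and 0.0383 after ECL). Many of these genes are expressed by neurons or astrocytes. Gpr37l1, a receptor of astrocytes and progenitors, was the gene that rose, by 0.88 and 1.12 on the log2 scale.

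Of 7 tested genes in the list of axon contact proteins at nodes and paranodes, 1 fell after SCL and 2 rose after ECL. The list also holds cytoskeletal genes such as Tubb4a. It left out Cntnap1, a paranodal contact protein counted above among the ligands and receptors. Cntnap1 fell after SCL (log2 fold change -0.90, edgeR adjusted p = 0.00917) and after ECL (-0.73, adjusted p = 0.0223), so these counts do not describe all such proteins. Of all genes tested, 11.8% were called lower after SCL and 15.2% higher after ECL. Tubb4a, a tubulin abundant in neurons and oligodendrocytes, rose by 1.397 on the log2 scale after ECL, a call lost with the offset for length and GC content (edgeR adjusted p = 0.0625). After SCL it stood at 0.93 (edgeR adjusted p = 0.129), with an adjusted p of 0.0289 without SCL library 4. Sptbn4, the spectrin of nodes, was called after ECL (log2 fold change 0.81, edgeR adjusted p = 0.0407), lost in 8 of 18 alternative fits: without control library 1, 4 or 5 or ECL library 3 or 4 (adjusted p from 0.0643 to 0.129), with the title-number block (0.0935) or heading-number block (0.0511) and with a sex term (0.0916). Epb41l3, a paranodal anchor protein, was called after SCL (-0.43, edgeR adjusted p = 0.0325), lost in 11 of 21 alternative fits, among them leaving out control library 1 or 5 or SCL library 2, 3 or 4 (adjusted p from 0.0629 to 0.0920). Ank3, which gathers sodium channels at nodes, stood at -0.34 and -0.32 and was not called.

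**Figure D5:**
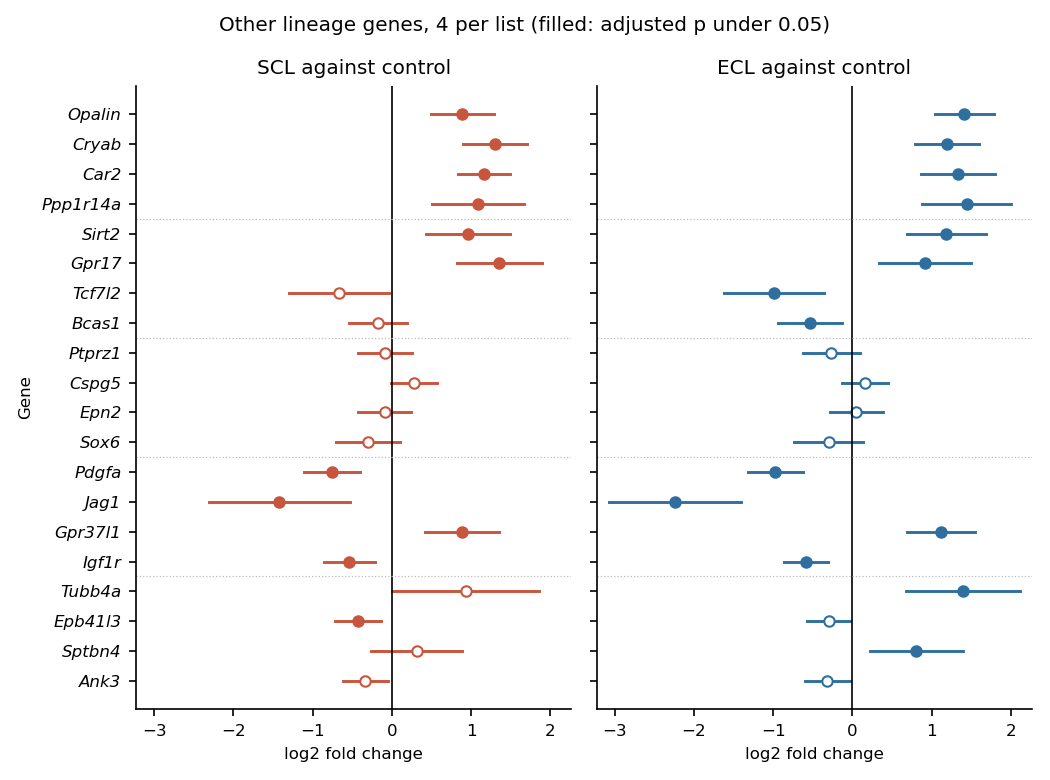
Log2 fold change (points) and 95% interval (lines) of 4 genes from each of the 5 other lineage lists, separated by dotted lines in the order mature oligodendrocyte, differentiating, progenitor, ligands and receptors, and axon contact, after SCL and after ECL. Filled points have an edgeR adjusted p under 0.05. Called genes were chosen by the smallest adjusted p in these comparisons, then others by the highest mean CPM. The 4 mature oligodendrocyte genes lie between 0.89 and 1.44, the 4 progenitor genes are open, and Pdgfa, Jag1 and Igf1r lie below 0.

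Markers of other cells moved in the same libraries. The counts below stand beside 13.1% and 15.2% of all genes called higher after SCL and ECL, and 11.8% and 12.5% called lower. All 10 microglia markers rose after SCL and 7 of 10 after ECL, and their summed level went from 447 to 541 CPM in the controls to 932 to 2025 after SCL and 1077 to 1458 after ECL. Of 8 astrocyte markers, 4 rose after SCL and 3 after ECL, among them Gfap (log2 fold change 0.85 and 0.73) and Aldoc (1.59 and 1.33). Of those not called, Slc1a2 stood at -0.41 and -0.39, Slc1a3 at -0.39 and -0.42 and Gja1 at 0.18 and -0.80. The astrocyte sum ranged from 7772 to 12797 CPM in the controls, 9621 to 13285 after SCL and 8911 to 11815 after ECL. Of 7 neuron markers, 2 fell after SCL and 4 after ECL, and the sum ranged from 3561 to 4431 CPM, from 3027 to 4103 and from 3056 to 4458. The part of these cells in the values of Mog and Mbp was not tested. Schwann cells make myelin with Mbp and Mag in peripheral nerve. Of 5 markers of these cells, Pmp2 lay between 0 and 0.0424 CPM over all libraries, while Ncmap (0.60 to 2.84 CPM) and Prx (0.39 to 1.71 CPM) were detected in every control. Among the 5 only Egr2, which neurons also use as an immediate early gene, was tested and it fell after both lesions (log2 fold change -4.98 and -4.31). That fall took the sum of the 5 from 47.4 to 124 CPM in control cultures down to 2.90 to 6.82 CPM with SCL and 4.92 to 8.27 CPM with ECL. The part of Schwann cells in the values of Mbp and Mag was not tested. Of 8 proliferation markers, 5 of 7 tested rose after SCL, namely Ccnb2 (log2 fold change 3.25), Cdk1 (2.78), Ccnb1 (2.77), Birc5 (1.70) and Top2a (1.14), while Pcna, the most abundant, stood at 0.15 and was not called. After ECL 1 of 4 tested rose, Cdk1 (2.12), with Pcna at -0.03. Ccnb1, Ccnb2 and Birc5 were under the count minimum in the ECL comparison, so both counts rest on different genes. Their means there were 5.50, 10.1 and 9.57 CPM, beside 1.85, 2.29 and 3.78 CPM in the controls.

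The pattern of Mbp over the 13 libraries was most like that of Mfsd2a (Pearson r = 0.945 of log2 CPM), Bcan (0.937), Gng13 (0.936), Ralgds (0.930) and Plbd2 (0.927). Among the members, Mag came nearest to Mbp (r = 0.811), followed by Mog (0.669) and Cnp (0.555), while Mobp stood at 0.336, Olig2 at 0.298 and Pdgfra at 0.02. Olig2 was most like Stat5b (r = 0.8295), Adamts4 (0.8292), Neat1 (0.821), Acot11 (0.799) and Sfmbt1 (0.793), with Mobp (0.723) and Cnp (0.700) its nearest members and Mog at -0.14. Pdgfra was most like Cnot6 (r = 0.948), Mfap3l (0.923), Ptn (0.899), Rnf111 (0.898) and Rhbdd1 (0.873), and the nearest member was Mog (0.352). These are descriptions over libraries that share groups, depth and scaling, and the 5 best of all genes tested in the 3 comparisons will be high by selection.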

How the data were processed

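The measured quantity was RNA abundance in 13 bulk libraries of CA1 tissue. The authors trimmed reads with cutadapt 3.5, mapped them with STAR 2.7.8a to mm10 (GRCm38) and deposited, per library, raw counts per gene symbol from featureCounts 2.0.1 over GENCODE M25 exons without regard to strand. Between 63.01% and 74.28% of counts from 1 to 20 were even, so read mates may have been counted separately.

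Groups came from the sample titles. Sex came from the column headings, whose numbers disagree with the titles. Each comparison was fitted by itself with edgeR 4.0.16 (R 4.3.3, glmQLFit and glmQLFTest, TMM factors over the genes kept) on genes whose normalized counts averaged 150 or more, and a Benjamini-Hochberg adjusted p under 0.05 made a call. Intervals are 95%. Levels are counts per library total (CPM) on one TMM scaling of all 13 libraries, and levels per kb used the union of GENCODE M21 exons. Correlations used log2(CPM + 1). The fit was tested on simulated counts. No 2 libraries were identical. DESeq2 1.42.0, other scalings and filters, blocks, a sex term, thinned and halved counts, leaving out each library, and an offset for length and GC content (mgcv 1.9.3) were alternatives.

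The members and gene lists were chosen with earlier results of these data known. Named were all 9 members, up to 4 genes of each other lineage list (called genes by smallest adjusted p, then the highest mean CPM), the 5 genes most like Mbp, Olig2 and Pdgfra, and the leading markers of other cell types. Lineage genes outside this rule are marked in the text. Further markers of other cell types, among them C1ql2, Dsp, Des, Vtn, Col3a1 and Pmp2, were also named outside it and are not marked. The same-number libraries did not pair throughout: of 12 pairs, 5 had deviations correlated above 0.1. The highest correlation, 0.530, was between SCL library 1 and ECL library 1. Tables and figures used Python 3.11.15. Some results of the gene lists are not reported here.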

Additional observations from a re-analysis of the deposited data

Results flagged for a closer look

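Of 87 groups of libraries checked for a single distant value, 3 stood out, and chance gives about 1 in 20. Control library 2 had the highest Mog level of its group, 76.7 CPM against 47.9 to 55.7 CPM in the other controls, with a gap of 0.730 of the group's range. It still lay below every lesioned culture. SCL library 1 had the lowest Mobp level, 251.5 CPM against 355.7 to 371.4 CPM (gap 0.868 of the range), and ECL library 1 had the lowest Mobp level of its group, 277.1 CPM against 403.3 to 416.3 CPM (gap 0.906 of the range).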

How the results depend on the processing

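Beside leaving out each library, 10 alternatives were planned and 2 (the heading-number block and the length and GC offset) were added after seeing the data. Mog stayed called in all 21 for each lesion. Members called fell to 1 after SCL with the replicate block by title number (Mbp adjusted p = 0.0503, edgeR) or by heading number (0.0738) and to 1 after ECL with the sex term, and ranged from 1 to 2 without 1 library in either comparison. The pairing changed no other member's call. By title number the block gave 2338 calls over all genes after SCL and 2671 after ECL. The correlations of same-number libraries ran from -0.145 to 0.530, so the numbers are not taken as pairs.

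Over all genes, calls were 5390 with no filter and 1825 with the heading-number replicate block after SCL, 8034 with no filter after ECL, and 65 (DESeq2), 217 (no filter), 1 (one fit) and 1 (sex term) between lesions. Without 1 library they ranged from 1686 to 2799 after SCL and from 0 to 54 between lesions, the 54 without SCL library 3, and other lineage calls after SCL from 11 to 19, the 11 without SCL library 3. TMM over all symbols moved the median log2 fold change to 0.21 after SCL and 0.18 after ECL. Higher calls were 1506 of 2860 after SCL, 2028 of 3172 with DESeq2 and 2524 of 3118 with that scaling, and after ECL 1712 of 3118 against 2447 of 3140.

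Members near 0 that were not called changed sign, and the cause was not tested. After SCL, Mobp was 0.0457 with TMM over all symbols and with no filter, Cnp -0.0197 (title block) and -0.1345 (length and GC), Olig1 -0.0398 and -0.2112 in the same order, and Olig2 -0.2005 (length and GC). After ECL, Mobp was -0.0903 (sex) and -0.0579 (length and GC). Cnp was 0.0413 (DESeq2), 0.1618 (TMM over all symbols, no filter), 0.0501 (filterByExpr) and 0.0042 (heading block). Olig1 was 0.0724 and 0.0725 (TMM over all symbols, no filter). Olig2 was 0.0134 (DESeq2), 0.1346 (TMM over all symbols, no filter), 0.0224 (filterByExpr), 0.0545 (title block) and 0.0069 (heading block). Between lesions the sex term gave Mbp -0.2072, Mobp -0.0256 and Cspg4 -0.2023, and length and GC gave Cspg4 -0.0509.

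Without 1 library, log2 fold changes ranged after SCL from -0.0598 to 0.1332 (Cnp), -0.1442 to 0.1645 (Olig1) and -0.058 to 0.1849 (Olig2), and after ECL from -0.089 to 0.0919 (Cnp), -0.0358 to 0.1398 (Mobp) and -0.1541 to 0.0897 (Olig2). Between lesions they ranged from -0.1457 to 0.0774 (Cnp), -0.1468 to 0.1837 (Cspg4), -0.1848 to 0.0966 (Mag), -0.1438 to 0.1784 (Mbp), -0.0546 to 0.2347 (Mog), -0.271 to 0.0134 (Olig1), -0.2215 to 0.0343 (Olig2) and -0.0667 to 0.0239 (Pdgfra). Depth limited Cspg4, which was below the count minimum when counts were halved.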
